A study of Mus musculus with 12 samples.

Results

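Among the 54838 genes counted in adult mouse spinal cord, 5 predicted genes known only by their numbers, Gm11168, Gm10719, Gm21738, Gm10800 and Gm10718, are described here because their counts had the largest falls, among well-counted genes that passed the test, at 4 days after a demyelinating lesion (4dpl) in Tet1 mutants. The choice used the fitted log2 change between mutant lesioned and mutant unlesioned cord, so that change is given below as a description with no test. As rebuilt here, 12 genes qualified, being called lower in mutant cord with an average log2 CPM (counts per library total on a common scale) of at least 1 and libraries that did not overlap, and the 5 lead them. This average is not the plain mean of log2 CPM over libraries, which was 0.75 for Gm11168. Genes that did not qualify could have larger fitted falls, as Gm10720 (-3.79) and Gm17535 (-4.44) next to the members did, and Gm9637, also a neighbour, was at 0 in all 3 mutant 4dpl libraries. Inside the choice the mutant log2 changes ran from -3.74 for Gm11168 to -3.68 for Gm10718, and the next qualifying genes were Gm10717 at -3.67, Gm10722 at -3.66 and Gm10801 at -3.64. The change in control cord was not used in the choice, and the test of the lesion in control cord is therefore the one reported. It is not fully separate from the choice, because the control libraries entered the filter, the scaling, the fit and the average level.

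The study asked how loss of TET1, an enzyme that converts methylated cytosine to hydroxymethylated cytosine, affects gene expression during myelin repair. All 4 groups carried floxed Tet1 alleles and were taken at P60, with 3 libraries each. Control mice were Olig1+/+;Tet1fl/fl, which the sample labels call wildtype, and mutants were Olig1cre/+;Tet1fl/fl, labelled Tet1 cKO, where Cre is expressed from the Olig1 locus in the oligodendrocyte lineage. Lesions were made by injecting lysolecithin (LPC), a detergent-like lipid that strips myelin, into the ventrolateral white matter, and the unlesioned tissue was the contralateral side. Cells were enriched for oligodendroglia on a Percoll density gradient without sorting, mice of either sex were used, and the study names C57bl6 for its wildtype mice without tying it to the Tet1 line. Which libraries came from which animal is not given in the sources used here, so p-values measure the spread between these libraries.

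The names of the 5 genes say nothing of what they do, but their sequence is of a known kind. Mouse chromosomes carry, beside each centromere, long arrays of an AT-rich tandem repeat called the major satellite, packed into constitutive heterochromatin marked by DNA methylation and histone H3 lysine 9 methylation. Only small fragments of these arrays are placed in the assembled genome, and predicted genes in such fragments are open reading frames called by computer. Transcription of satellite repeats is known to be low in most adult tissues and to vary with cell cycle, stress and chromatin state.

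Gm11168 (chr9:3003346-3006948), Gm10719 (chr9:3017408-3021593) and Gm10718 (chr9:3023547-3025218) lie side by side on the plus strand of GRCm38 at the start of the assembled part of chromosome 9. Gm21738 is on the minus strand of chromosome 14 (chr14:19415857-19418930) and Gm10800 on the minus strand of chromosome 2 (chr2:98666547-98667301). The exons counted amounted to 1892 bases for Gm11168, 1800 for Gm10719, 681 each for Gm10718 and Gm21738 and 660 for Gm10800. GENCODE M21, the annotation of the same build, calls all 5 protein-coding, and no function is assigned to them.

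The first 240 bases of each gene's first transcript (number 201), copied from the GENCODE M21 transcripts on GRCm38, are shown because the likeness between genes on 3 chromosomes bears on every count below. Capitals mark bases that lie in a 16-base word found in the transcripts of all 5 genes.

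Gm10800: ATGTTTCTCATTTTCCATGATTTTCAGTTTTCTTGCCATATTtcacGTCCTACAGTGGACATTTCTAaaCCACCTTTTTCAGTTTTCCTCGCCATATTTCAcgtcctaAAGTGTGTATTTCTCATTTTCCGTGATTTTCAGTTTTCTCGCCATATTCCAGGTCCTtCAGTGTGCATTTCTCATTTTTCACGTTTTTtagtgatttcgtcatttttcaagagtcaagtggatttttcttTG
Gm21738: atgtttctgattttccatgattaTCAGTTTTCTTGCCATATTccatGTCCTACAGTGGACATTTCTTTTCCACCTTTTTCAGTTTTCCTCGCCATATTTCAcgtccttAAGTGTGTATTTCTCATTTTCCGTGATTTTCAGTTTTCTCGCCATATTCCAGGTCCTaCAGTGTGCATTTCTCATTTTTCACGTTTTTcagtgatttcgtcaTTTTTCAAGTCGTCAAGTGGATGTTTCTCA
Gm10718: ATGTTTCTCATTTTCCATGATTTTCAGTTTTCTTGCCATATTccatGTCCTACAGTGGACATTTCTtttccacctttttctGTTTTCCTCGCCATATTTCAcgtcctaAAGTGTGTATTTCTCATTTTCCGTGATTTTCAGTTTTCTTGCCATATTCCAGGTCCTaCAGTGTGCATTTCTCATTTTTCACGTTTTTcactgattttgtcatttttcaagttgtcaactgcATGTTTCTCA
Gm10719: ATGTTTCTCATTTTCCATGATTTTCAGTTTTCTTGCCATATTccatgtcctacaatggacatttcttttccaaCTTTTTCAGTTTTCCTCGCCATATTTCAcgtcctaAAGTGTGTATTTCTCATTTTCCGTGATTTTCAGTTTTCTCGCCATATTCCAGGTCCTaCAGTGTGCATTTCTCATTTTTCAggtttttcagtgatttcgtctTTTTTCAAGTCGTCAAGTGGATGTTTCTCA
Gm11168: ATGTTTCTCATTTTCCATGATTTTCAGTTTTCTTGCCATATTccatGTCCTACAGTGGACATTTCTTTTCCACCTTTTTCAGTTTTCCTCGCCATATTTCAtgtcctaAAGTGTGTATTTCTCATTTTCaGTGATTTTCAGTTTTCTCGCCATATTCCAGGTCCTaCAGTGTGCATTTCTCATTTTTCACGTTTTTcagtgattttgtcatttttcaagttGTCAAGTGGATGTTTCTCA

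Capitals covered between 74.6% of the printed bases in Gm10718 and 84.2% in Gm11168. Aligned end to end, the 5 transcripts of 660 to 684 bases were 90.6% (Gm21738 with Gm10800) to 97.2% (Gm11168 with Gm10719) identical, and Gm10800 was the one least like the others, at 90.6% to 91.8%. Their GC content was 35.2% to 36%, against a median of 50.4% for coding transcripts. Each transcript also repeated itself. When Gm10719, Gm21738 and Gm10718 were slid along themselves, the best match between 200 and 300 bases was at 234 bases, where 62.4% to 63.8% of bases were identical. For Gm11168 it was at 237 bases (62.9%) and for Gm10800 at 225 bases (56.3%), while the median over offsets of 20 to 399 bases was 30.7% to 31.2%. A shorter period of 58 bases was shared by all 5, with 51.2% to 58.6% of bases identical. A unit of 234 bases made of related shorter blocks is what the mouse major satellite is known for. No satellite or genome sequence was aligned here, so the number of further copies in the genome was not measured.

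**Figure D1:**
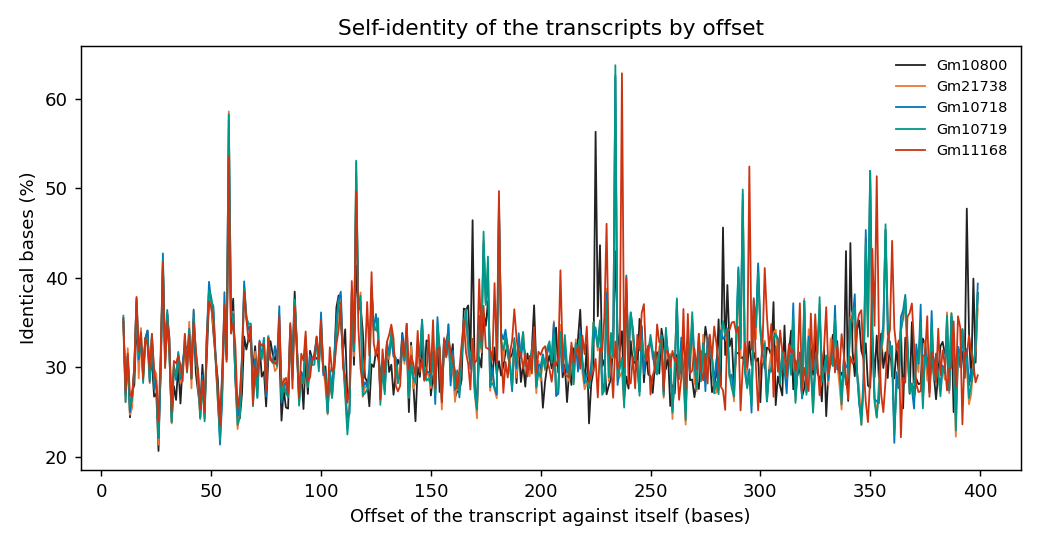
Percent of identical bases (vertical axis) when each of the 5 transcripts is compared with itself at an offset of 10 to 399 bases (horizontal axis, bases). All 5 lines peak at 58 bases, and the highest peaks between 200 and 300 bases stand at 225 bases for Gm10800, 237 bases for Gm11168 and 234 bases for the other 3 genes.

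Such likeness limits how well reads can be assigned. Of 55450 genes searched through their 141767 transcripts, 8 others held a 30-base word of a member: Gm10715, Gm10717, Gm10720, Gm10721, Gm10722, Gm10801, Gm17535 and Gm26870, and all 8 lie within 100 kb of a member. They shared between 36% (Gm10801) and 91.4% (Gm10720) of their 30-base words with members, and 7 of the 8 also shared whole stretches of 100 bases, the read length. Gm26870, a long noncoding RNA gene on the opposite strand, shares 235 exon bases with Gm11168, 218 with Gm10719 and 155 with Gm10718. By its methods the study counted uniquely aligned reads, and its strand setting is not given. Reads of these 3 genes and of Gm26870 therefore cannot be told apart where they overlap. The 5 genes are for these reasons not 5 independent measurements.

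Gm10800 carried most of the signal. Its level in CPM, the counts per library total after scaling by the trimmed mean of M-values (TMM), in control unlesioned replicates 1 to 3 was 589, 676 and 1283, and in control 4dpl it was 129, 117 and 225. In mutant unlesioned cord it was 588, 1564 and 3535 CPM, and in mutant 4dpl 202, 152 and 87.2 CPM. Every unlesioned library was thus above every lesioned library of either genotype, and the widest spread was among the mutant unlesioned libraries, where the highest was 6.01 times the lowest. The raw counts behind these levels ran from 4848 to 156101, so counting error is small beside the spread between libraries.

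Gm21738, on chromosome 14, followed the same order. Its levels were 118, 140 and 261 CPM in control unlesioned, 25.3, 23.8 and 44.1 CPM in control 4dpl, 121, 288 and 660 CPM in mutant unlesioned and 40.2, 27.8 and 14.6 CPM in mutant 4dpl. The 3 chromosome 9 genes were lower. Gm10718 was at 10.5, 14.1 and 21.4 CPM in control unlesioned and at 2.38, 2.53 and 4.63 CPM in control 4dpl, and at 11.4, 26 and 66.3 CPM in mutant unlesioned and 3.64, 2.85 and 1.60 CPM in mutant 4dpl. Gm10719 was at 3.01, 3.65 and 6.76 CPM in control unlesioned, 0.612, 0.537 and 1.43 CPM in control 4dpl, 3.41, 9.49 and 20.8 CPM in mutant unlesioned and 1.07, 0.993 and 0.467 CPM in mutant 4dpl. Gm11168 was the lowest, at 2.76, 3.27 and 5.39 CPM in control unlesioned, 0.350, 0.572 and 0.852 CPM in control 4dpl, 2.56, 6.68 and 14.2 CPM in mutant unlesioned and 0.955, 0.429 and 0.360 CPM in mutant 4dpl. In all 5 genes the lesioned and unlesioned libraries did not overlap within either genotype, and replicate 3 of the unlesioned groups was the highest of its group in each gene.

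**Figure D2:**
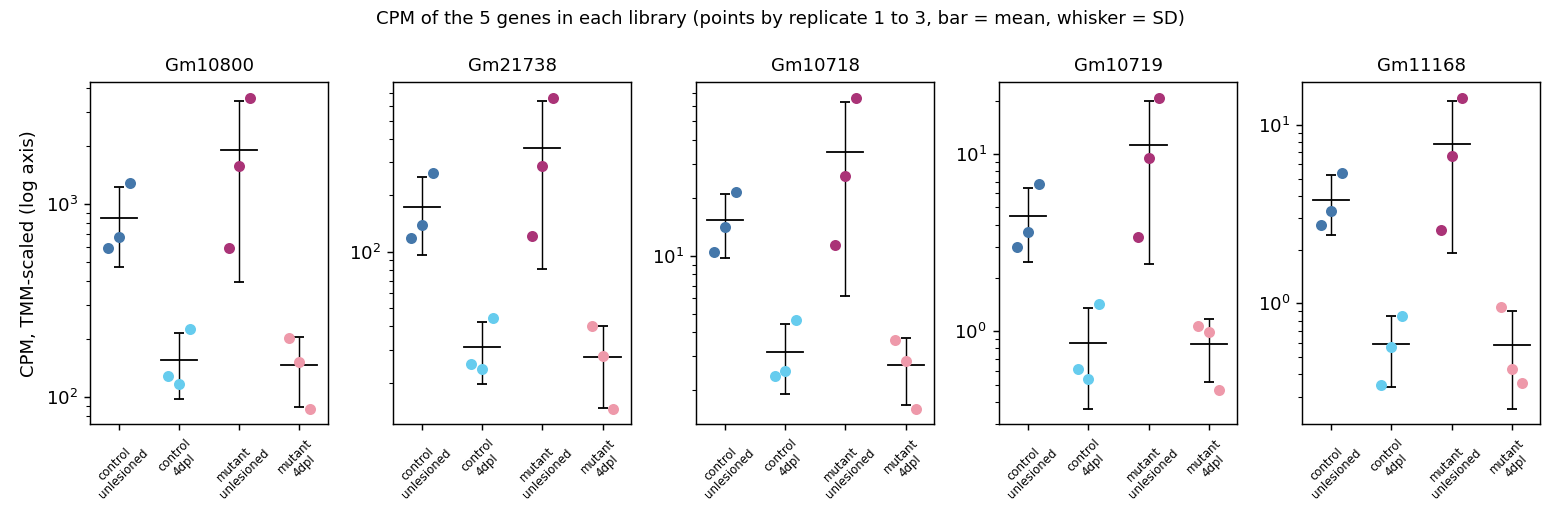
TMM-scaled CPM (log axis, a separate scale for each gene) of the 5 genes in the 12 libraries, with points for replicates 1 to 3 from left to right in each group, horizontal bars for means and whiskers for SD (n = 3). In each panel the 6 lesioned libraries lie below the 6 unlesioned ones, and mutant unlesioned replicate 3 is the highest, at 3535 CPM for Gm10800.

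Per kilobase of exon, the order of levels was Gm10800, Gm21738, Gm10718, Gm10719 and Gm11168. In control unlesioned cord the mean levels were 1287 ± 573, 254 ± 113, 22.5 ± 8.14, 2.49 ± 1.12 and 2.01 ± 0.738 CPM per kilobase (SD, n = 3), in that order. The first 3 steps held in all 12 libraries, with Gm10800 5.0 to 6.18 times Gm21738, Gm21738 9.10 to 12.2 times Gm10718, and Gm10718 7.26 to 12.4 times Gm10719. The last step was within the spread: Gm10719 was above Gm11168 in 11 of 12 libraries, by 0.987 to 2.43 times.

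In control cord, all 5 genes were lower at 4dpl. By edgeR's quasi-likelihood test over all 12 libraries, with a call at p under 0.01 and a Benjamini-Hochberg adjusted p under 0.05 over 31109 genes tested, 5 of 5 were called lower, where 5.01% of all genes tested were, and 5 of 5 had libraries lower with no overlap, as 21.4% of all genes tested had. Gm10800 had a log2 change of -2.44 (SE 0.57, adjusted p = 0.0308), or 5.42-fold lower. For Gm21738 it was -2.48 (SE 0.55, adjusted p = 0.0284), for Gm10718 -2.27 (SE 0.54, adjusted p = 0.0329), for Gm10719 -2.39 (SE 0.62, adjusted p = 0.0370) and for Gm11168 -2.69 (SE 0.60, adjusted p = 0.0290). The median of the 5 was -2.44, against -0.36 over all genes tested. Of the 245 genes with a mean level at least that of Gm10800, 0 others fell as far in control cord, and of the 2377 at least as high as Gm21738, also 0 others did. The same count was 9 of 10290 for Gm10718, 14 of 13300 for Gm10719 and 4 of 14119 for Gm11168. In bulk RNA, fewer cells of a type and less RNA per cell cannot be told apart.

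The calls depended on which control libraries were in the fit. Without control unlesioned replicate 1 or control 4dpl replicate 3, all 5 were still called by edgeR, with a highest adjusted p of 0.0166 and 0.0396. Without control unlesioned replicate 2, control unlesioned replicate 3, control 4dpl replicate 1 or control 4dpl replicate 2, each left out alone, edgeR called 0 of 5 at the adjusted threshold, with a highest adjusted p of 0.101, 0.111, 0.116 and 0.111 in these 4 fits, although all 5 kept an unadjusted p under 0.05 (highest 0.00966). The fall itself remained, with a median between -2.75 and -2.0 over the 12 fits that each left out 1 library.

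In the mutant, where the genes were chosen, the fitted log2 changes were -3.69 for Gm10800, -3.70 for Gm21738, -3.68 for Gm10718 and -3.74 for both Gm10719 and Gm11168, with a median of -3.70 against -0.18 over all genes tested. Lower calls were made for 0.113% of all genes tested in the mutant and libraries lower with no overlap were seen for 23.2%. These falls were 12.9- to 13.4-fold, and 1.05 to 1.41 larger on the log2 scale than in control, a difference that the choice of genes favoured and that was not tested. Without mutant unlesioned replicate 3 the mutant median was -2.88.

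Genotypes overlapped in both states. In unlesioned cord the mutant means were above the control means by 1.03 to 1.33 on the log2 scale, but mutant unlesioned replicate 1, with 588 CPM of Gm10800, was at the level of control unlesioned replicate 1 with 589 CPM, while the other 2 mutant unlesioned libraries were above all 3 control libraries in each of the 5 genes. At 4dpl the difference was -0.24 to -0.02, and summed over the 5 genes the libraries were at 157, 144 and 276 CPM in control and 248, 184 and 104 CPM in mutant. The same sums were 723, 837 and 1578 CPM in control unlesioned and 727, 1895 and 4297 CPM in mutant unlesioned. As shares of each library's counts, the 5 genes together took 0.0636% to 0.205% in control unlesioned, 0.0868% to 0.545% in mutant unlesioned, 0.0124% to 0.0251% in control 4dpl and 0.00899% to 0.0231% in mutant 4dpl.

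**Figure D3:**
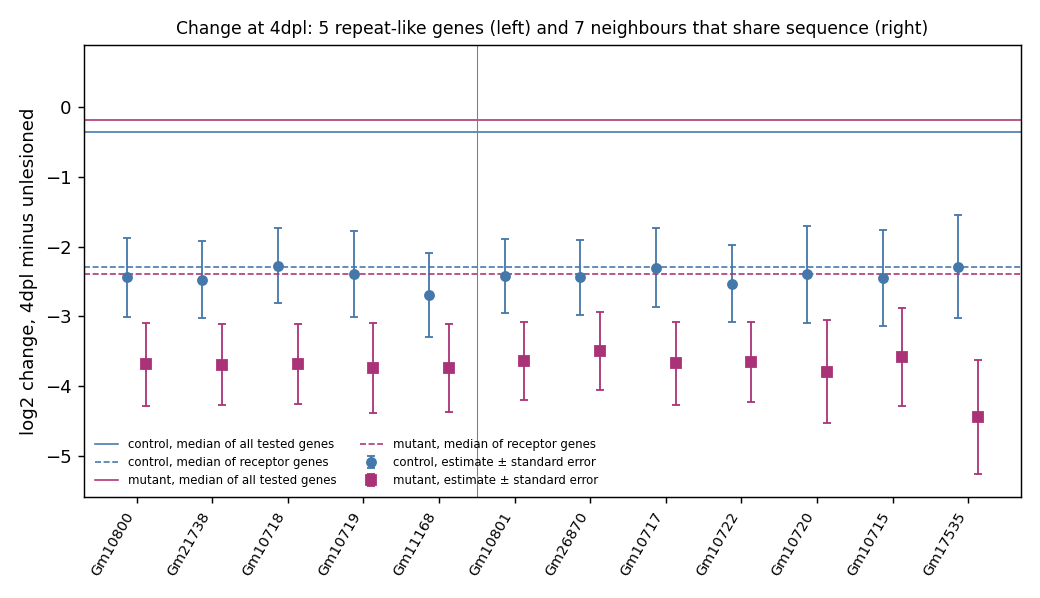
Fitted log2 change between 4dpl and unlesioned cord (vertical axis) with its standard error for the 5 genes and for the 7 neighbours sharing their sequence that were tested, in control (blue circles) and mutant (purple squares), with lines for the medians of all tested genes (solid) and of olfactory and vomeronasal receptor genes (dashed). The 5 genes lie between -2.69 and -2.27 in control and between -3.74 and -3.68 in mutant, the contrast they were chosen on.

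Genes next to them were lower as well. Of the 15 other genes within 100 kb of a member, 9 had enough counts for the test. In control cord 6 of 9 were called lower, against 5.01% of all genes tested. Libraries were lower with no overlap for 8 of 9, against 21.4%. The median log2 change of the 9 was -2.44. The 5 most abundant were Gm10801, a predicted gene next to Gm10800, at 116 ± 51.7 CPM in control unlesioned and 21.7 ± 9.02 CPM in control 4dpl (SD, n = 3), and then Gm26870, Gm10717, Gm10722 and Gm10720. The log2 changes were -2.42 for Gm10801 (adjusted p = 0.0279), -2.44 for Gm26870 (0.0279), -2.30 for Gm10717 (0.0347), -2.53 for Gm10722 (0.0267) and -2.40 for Gm10720 (0.0464). The 3 that were not called, Gm17535, Gm9637 and Gm5630, had values of -2.29 (adjusted p = 0.0603), -4.05 (0.0640) and -2.93 (0.137). Like the calls of the 5 genes, those of the neighbours were lost in the same 4 fits with a control library left out. Of the 9, 7 share sequence with the members and are no separate support for them, and Gm9637 and Gm5630, which shared no 30-base word with them, had at most 0.508 and 0.352 CPM in control unlesioned cord.

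The counts of the sequence-sharing genes were divided among the annotated places in proportions that varied little for the abundant ones. Over the 12 libraries, Gm10800 took 68.5% (95% Wilson interval 68.1 to 68.9) to 71.6% (70.5 to 72.6) of the counts on the 13 genes that share 30-base words. Gm21738 took 12% to 14.2%, Gm10801 8.47% to 9.86%, Gm26870 2.09% to 2.60%, Gm10718 1.16% to 1.5%, Gm10719 0.318% to 0.461% and Gm11168 0.190% to 0.339%. The least counted genes varied more, with Gm10720 at 0.0623% to 0.180%, Gm10715 at 0.0570% to 0.177% and Gm17535 at 0.0125% to 0.125%. For Gm17535 the intervals of the lowest and the highest library did not overlap. The summed level of the 5 genes meanwhile ran from 104 to 4297 CPM. The highest and lowest intervals of Gm10800 do not overlap, so the proportions were close but not equal within counting error, which is all that these intervals cover. As a description over 12 libraries that share groups and depth, the log2 CPM of each member had a Pearson correlation of 0.989 to 0.999 with the mean of the other 4.

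**Figure D4:**
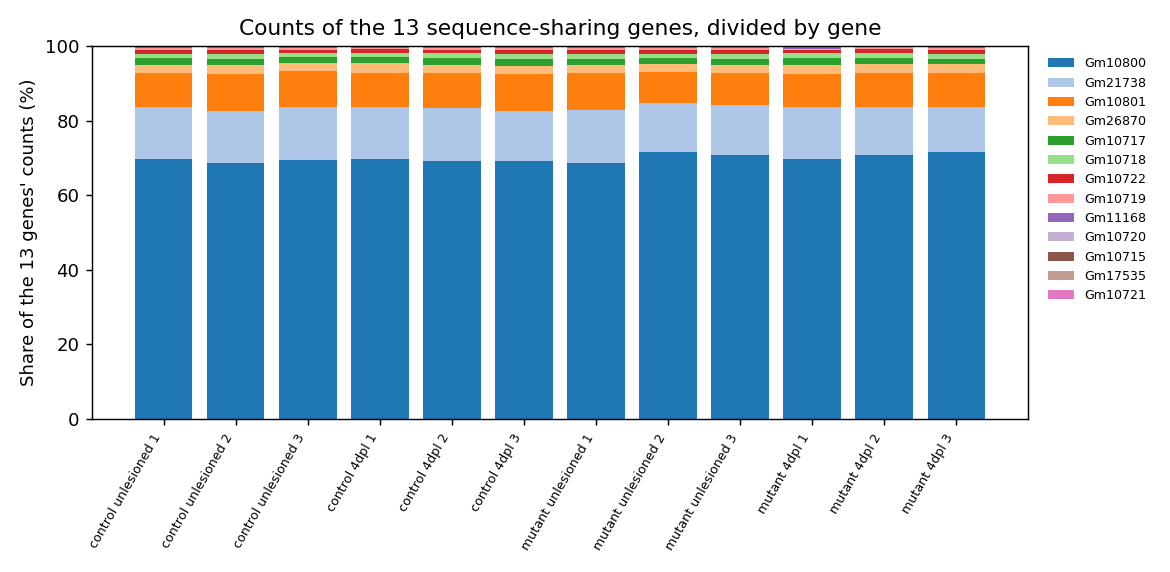
Stacked bars giving, for each of the 12 libraries, the share (%) of the counts on the 13 sequence-sharing genes that fell on each gene. Gm10800 at the bottom takes 68.5% to 71.6% in every library, and the division looks alike in control, mutant, unlesioned and lesioned cord although the summed level of the 5 genes runs from 104 to 4297 CPM.

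Among genes that build or silence this chromatin, 1 was called. In a list of 30, with histone methyltransferases, HP1 proteins, DNA methyltransferases, the TET enzymes and centromere proteins, all 30 were tested, 1 was called higher in control cord and 0 lower, where 5.12% of all genes tested were called higher and 10.1% in either direction. At an unadjusted p under 0.05 by edgeR the numbers were 4 higher and 0 lower, and DESeq2 called 3 higher and 0 lower. Of all 31109 genes tested, 4336 were higher and 6248 lower at that unadjusted threshold, and DESeq2 called 2620 higher and 4376 lower. The one called was Setdb1, an H3 lysine 9 methyltransferase known for silencing retroelements, at 25.8 ± 1.99 CPM in unlesioned and 63.8 ± 3.37 CPM in lesioned control cord (SD, n = 3), a log2 change of 1.31 (SE 0.21, adjusted p = 0.0214), and its groups did not overlap. Without control unlesioned replicate 2, control 4dpl replicate 1 or control 4dpl replicate 2 its adjusted p was 0.0881, 0.0742 and 0.0798. In mutant cord Setdb1 was at 37.9 ± 8.48 and 60.5 ± 6.69 CPM (log2 0.68, SE 0.21, adjusted p = 0.0673). There edgeR called 0 of the 30, where 0.0225% of all genes tested were called higher and 0.135% in either direction. With an unadjusted p under 0.05 by edgeR, 6 of the 30 were higher and 0 lower. Of all 31109 genes tested, 4939 were higher and 5564 lower in mutant at that threshold. DESeq2 called 0 of the 30 in mutant.

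The other values with the smallest p in control were Mbd1, a methyl-CpG binding protein, at a log2 change of 0.80 (adjusted p = 0.0682), the de novo methyltransferase Dnmt3a at 0.77 (0.0715), the centromere protein gene Cenpb at 0.66 (0.145) and the corepressor Trim28 at -0.40 (0.220). The list's median was 0.08 in control and 0.37 in mutant with TMM scaling, and its sign turned with the scaling, to -0.42 and -0.19 with factors from abundant genes and to -0.22 and -0.11 with library totals. Setdb1 was called higher in control under both of these scalings, at log2 0.77 and 0.97, and with factors from abundant genes 4 others of the list were called lower. Tet1 itself was at 16.1 ± 1.93 CPM in control unlesioned, 12.1 ± 0.39 in control 4dpl, 12.8 ± 3.28 in mutant unlesioned and 15.2 ± 5.55 in mutant 4dpl (SD, n = 3), so its count over the whole gene did not separate the genotypes, and the deleted exon was not counted apart. With factors from abundant genes Tet1 was called lower in control cord, at a log2 change of -0.97 (adjusted p = 0.0401).

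Reads on genes that belong to other tissues were also lower after the lesion. Olfactory and vomeronasal receptor genes encode odour and pheromone receptors of sensory neurons in the nose. Of 1965 such genes, 1110 were tested, 168 were called lower and 0 higher in control cord, 502 had libraries lower with no overlap, and their median log2 change was -2.30. Of all genes tested in control, 5.01% were called lower and 21.4% had libraries lower with no overlap. In mutant cord, 5 receptor genes were called lower and 0 higher, 690 did not overlap, and the median was -2.40. The shares of all genes tested there were 0.113% called lower and 23.2% lower with no overlap. No scaling tried gave a receptor gene called higher. Their summed level was 358, 618 and 1013 CPM in control unlesioned, 129, 125 and 214 CPM in control 4dpl, 617, 866 and 1271 CPM in mutant unlesioned and 266, 215 and 98.9 CPM in mutant 4dpl. The receptor sums did not overlap between lesioned and unlesioned cord either, and the lowest of the 12 was the same library, mutant 4dpl replicate 3, as the highest was mutant unlesioned replicate 3.

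The balance between the repeat-like genes and the receptor genes also differed between states. The ratio of the summed CPM of the 5 genes to that of the receptors was 1.35 to 2.02 in control unlesioned and 1.15 to 1.29 in control 4dpl, and 1.18 to 3.38 in mutant unlesioned and 0.858 to 1.05 in mutant 4dpl, without overlap in either genotype, and this ratio was not tested because the genes were chosen on part of it. Group means of the summed CPM were 5.43 times higher in unlesioned than in lesioned cord for the 5 genes in control and 4.25 times for the receptors. In the mutant, the contrast the genes were chosen on, they were 12.9 and 4.75 times higher. Genes with a mean log2 CPM under 0, summed, were 2.17 times higher in control and 2.22 times in mutant unlesioned cord. The other 26713 predicted genes named Gm and a number, of which 9378 were tested, had 616 called lower and 23 higher in control with a median log2 change of -1.24. Among all genes tested, 5.01% were called lower and 5.12% higher in control, with a median of -0.36. The number of genes with at least 1 count was 40023 to 44516 in unlesioned and 33964 to 37516 in lesioned libraries. Whether these lower sums and gene numbers have a part in the fall of the 5 genes was not tested.

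**Figure D5:**
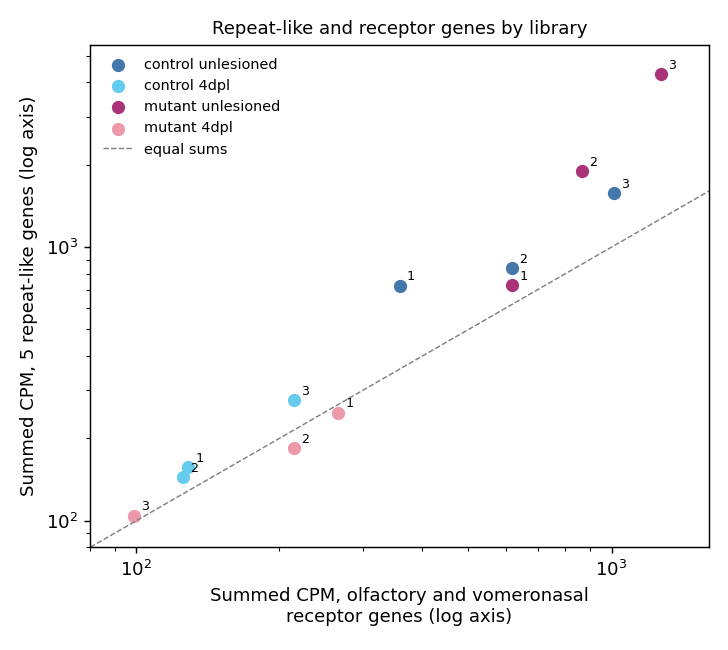
Summed TMM-scaled CPM of the 5 repeat-like genes (vertical axis, log) against that of 1965 olfactory and vomeronasal receptor genes (horizontal axis, log) in the 12 libraries, numbered by replicate, with a dashed line where the sums are equal. Lesioned libraries sit at the lower left near the line, at ratios of 0.858 to 1.29, and unlesioned libraries at the upper right above it, up to a ratio of 3.38.

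Outside these neighbourhoods, the genes whose log2 CPM over the 12 libraries was most like the mean of the 5, among 13608 with a mean of at least 1 on that scale, were Vmn2r76 (Pearson r = 0.968), AC160336.1 (0.963), Gm11639 (0.963), Fau-ps2 (0.952) and Pkhd1 (0.949). The next were Gm12735, Gm37985, Foxp2, Muc6 and Oprm1, down to 0.932. They were picked for likeness, the points share groups and depth, and their levels were low: Vmn2r76, a vomeronasal receptor, ran from 3.36 to 6.14 CPM in control unlesioned and from 0.385 to 1.57 CPM in control 4dpl.

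Transcripts known to be retained in nuclei had smaller values. Of 8 nuclear long noncoding RNAs, with Malat1 and Neat1 among them, edgeR called 0 in either genotype, with 0 in control and 1 in mutant lower at an unadjusted p under 0.05 and 0 and 1 by DESeq2, and the median log2 change was -0.57 in control and -0.52 in mutant. Of 4 genes that overlap ribosomal RNA sequence, Gm42418 and AY036118 were at 0 in all libraries, and Gm26917 and Lars2 had log2 changes of -1.09 to -1.0 in control and 0.03 to 0.28 in mutant with 0 called by edgeR (1 in control lower at an unadjusted p under 0.05, and 1 by DESeq2).

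Libraries held 34805086 to 67251544 counts, and markers of several cell types were present in all of them. Oligodendrocyte markers (10 of 10 detected) summed to 16805 to 21052 CPM in control unlesioned and 23934 to 34830 CPM in control 4dpl, and to 14760 to 28865 and 26124 to 70150 CPM in mutant. Microglia and macrophage markers (11 of 11), which label cells that react to demyelination, summed to 15147 to 22440 and 32416 to 35005 CPM in control, with 4 of 11 called higher, and to 16253 to 21106 and 21903 to 34766 CPM in mutant. In control cord both TMM-scaled sums were higher at 4dpl with no overlap, where the 5 genes were lower. As shares of each library's counts, the oligodendrocyte sums overlapped, at 1.85% to 2.38% in control unlesioned and 2.05% to 3.17% in control 4dpl. The median log2 change of the oligodendrocyte markers in control also turned sign with the scaling. It was 0.23 with TMM, -0.10 with library totals and -0.29 with factors from abundant genes. Among the other lists, edgeR called 2 of 6 progenitor and 2 of 8 astrocyte markers higher in control and 0 of each lower, and 0 of 10 neuron and 0 of 5 endothelial markers in either direction. At an unadjusted p under 0.05 by edgeR, 1 progenitor marker was lower and 3 higher, and 0 astrocyte markers were lower and 4 higher. The progenitor markers Olig1 and Olig2 had control libraries lower at 4dpl with no overlap. At the same unadjusted threshold 1 neuron marker was lower and 2 higher and 0 endothelial markers passed. DESeq2 called 1 neuron marker lower and 0 endothelial markers.

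Blood markers were lower at 4dpl in control by their means. By edgeR, 0 of 4 erythroid markers were called in control, with 4 of 4 lower at an unadjusted p under 0.05, and DESeq2 called 4 of 4 lower. Erythroid markers (4 of 4) summed to 33690 to 98612 CPM in control unlesioned and 11719 to 39364 CPM in control 4dpl, but to 17814 to 41350 and 26611 to 42958 CPM in mutant, and in mutant their median log2 change turned sign with the scaling, from 0.32 with TMM to -0.15 with library totals and -0.20 with factors from abundant genes. Markers of B cells (5 of 5) summed to 490.0 to 1516 and 339 to 696 CPM in control and 434 to 1328 and 471 to 729 CPM in mutant. The part of these cell types in the fall was not tested.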

How the data were processed

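RNA of Percoll-enriched spinal cord cells, isolated with on-column DNase treatment, was sequenced in 12 libraries, 3 for each of 4 groups defined by genotype and lesion in the labels. Per the study's methods, 100-base paired reads were aligned with BWA to mm10, RefSeq exons, junctions and ribosomal and mitochondrial sequence, and uniquely aligned reads on Ensembl exons were counted with featureCounts. The submitters' processing notes name STAR and DESeq2 version 1.2.5 in its place, and the strand setting is not given in the sources used here. The deposited values are raw counts per gene. If the counts follow the study's methods, reads that align to several places were not counted, and part of the RNA of repeat-like genes is not in these counts. The submitters' notes leave this open.

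Genes were filtered by edgeR's filterByExpr over the 4 groups, scaled by TMM and fitted with edgeR 4.0.16 (glmQLFit, legacy setting, all 12 libraries) in R 4.3.3. Calls needed p under 0.01 and a Benjamini-Hochberg adjusted p under 0.05 over 31109 genes. CPM used TMM-scaled totals, and class sums and shares include untested genes. The test was checked on simulated data for the control comparison, where 96% of 200 genes changed by a log2 of 3 among 29196 were recovered with 12 false calls. The 5 genes changed by less in control, by -2.69 to -2.27, and recovery at that size was not measured. Transcripts came from GENCODE M21 and were aligned with Biopython 1.88. A word search used 30 bases on both strands. Alternatives were DESeq2 1.42.0, limma 3.58.1 voom, other scalings, filters and thresholds, fits to the 2 groups compared, a replicate block, and leaving out each library.

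The named genes were the 5 genes, up to 5 neighbours of highest level within 100 kb, the 10 genes most like them by Pearson correlation, and fixed lists of receptor, nuclear, ribosomal, chromatin and marker genes, with values for the 5 smallest p and Tet1 in the chromatin list. The 3 neighbours not called, and the least counted sequence-sharing genes, were named after their values were seen. The members and lists were chosen with earlier results of these data known. Total counts of 34805086 to 67251544 per library make counting error small for Gm10800 and larger for Gm11168. Intervals are 95% Wilson intervals and cover counting error only. The label numbers were checked for pairing by correlating deviations from group means. One marker list is not reported here.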

Additional observations from a re-analysis of the deposited data

How the results depend on the processing

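The 5 repeat-like genes were all called lower in control cord under each of the 12 alternatives that kept all control libraries, with adjusted p from 3.26e-08 to 0.0439 and log2 changes from -3.26 to -2.13 over genes and alternatives. Leaving out 1 library at a time gave 0 to 5 called members (0 without control unlesioned replicate 2 or 3, or control 4dpl replicate 1 or 2), 0 to 8 called neighbours, 0 to 5 called genes of the chromatin list, 0 to 3277 genes called lower and 1 to 4124 called higher, against 1558 and 1592 in all libraries. The median of the members ran from -2.75 to -2.0 in control and from -4.09 to -2.88 in mutant, the last without mutant unlesioned replicate 3.

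The number of genes called lower in control was 4376 with DESeq2 on all 12 libraries, 2887 (DESeq2) or 549 (edgeR) when the fit held the control libraries alone, 4742 with TMM factors from abundant genes, 616 with at least 10 counts in every library, 3721 with edgeR's newer dispersion setting and 4827 with voom. The number called higher was 2620, 2431 and 613 in the first 3 of these, 496 with factors from abundant genes, 473 with library totals, 679 with at least 10 counts and 4836 with voom. The chromatin list had 3 calls with DESeq2 on all libraries and 2 on the control libraries alone, 5 with factors from abundant genes, 5 with voom and 3 at an adjusted p of 0.10. Scaling moved the median of all genes in control from -0.36 to -0.42 with RLE, -0.70 with library totals and -0.90 with factors from abundant genes, and with the last the members' median was -3.01. The cause of these differences was not tested beyond the construction of each alternative.

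The labels number the libraries 1 to 3 in each group, but same-numbered libraries did not deviate together in every pair (r = 0.052 to 0.189 in control and -0.070 to 0.073 in mutant), so the numbers were not taken as pairs. The study's own list numbers the control 4dpl and mutant unlesioned libraries differently from the labels. The check and the replicate block below used the labels. In control 6 of 6 libraries correlated best with their own number, a hint from the data and not the design, and in mutant 2 of 6. With a replicate block on the 2 groups compared, 5 members, 7 neighbours and 1 chromatin gene were called, 1693 genes were called lower and 1912 higher, and the members' medians were -2.50 in control and -3.66 in mutant.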
